A study of Populus tremula x Populus alba with 3 samples.

Results

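Chromatin remodellers and histone methyltransferases set how tightly DNA is packed around histones, and so which genes can be read. SYD (SPLAYED, also CHR3) is an ATPase of the SWI/SNF family, which uses ATP to slide or evict nucleosomes, and in Arabidopsis it is known for maintaining the stem cells of the shoot apex. HB-1, a homeobox protein, is known in Arabidopsis as a partner of ISWI remodelling ATPases, which space nucleosomes evenly. SDG8 (also EFS, ASHH2 and CCR1) is a SET-domain enzyme that methylates histone H3 along transcribed genes and is known in Arabidopsis from flowering time and shoot branching.

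The genes described were chosen by name: they are the poplar rows whose Arabidopsis best-hit name includes SYD, HB-1 or SDG8, 7 of the 318 rows of the authors' deposited table. They comprise 3 rows named SYD, 2 named SDG8 and 2 named HB-1. The table lists only genes with a small adjusted p-value in the comparison itself, so the members were also selected on the adjusted p of this comparison, and being in the table already required a difference. The direction, fold and p of these 7 rows are therefore given as a description, with no further test.

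The plants were of the hybrid poplar clone 717-1B4 (Populus tremula x Populus alba). Shoot apices were taken after 28 days in SD, read here as short days, which bring on growth arrest and bud set. The wild-type group was 1 library, and the CsDML over-expression group was 2 libraries, from the lines labelled OX1 and OX3. CsDML is taken to be a chestnut gene of the DEMETER-like family of DNA demethylases. All 3 libraries share the clone, the tissue and the time in SD; no long-day group was analysed here. The promoter driving CsDML, and whether plants were pooled for a library, are not given in the sources used. Nothing in the labels says how the wild-type library would vary between plants, so the p-values do not measure that. Fewer cells of a type and less RNA per cell cannot be told apart in such whole apices.

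The authors' deposited table gives 1 log2 fold change per gene for both lines joined, an average level as log2 CPM (CPM, reads scaled to the size of a library), a p-value and an adjusted p-value, and no value per library. The depth is unknown. Genes with an adjusted p under 0.05 are said to have fallen or risen, and the others are said to be listed lower or higher. To give each fold an error, an implied standard error (SE) was worked out as the size of the log2 fold change divided by the normal deviate of its p-value; it is a derived value and holds no spread between wild-type libraries. Levels of each group were worked out from this average and the fold, taking 2 libraries against 1. CPM is not divided by gene length, so expression is compared between groups for 1 gene and not between genes. Where mean log2 CPM is set side by side for several rows, it stands for how many reads lay behind a value and not for expression.

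All 7 rows were lower in the over-expressors, and 3 of them fell at an adjusted p under 0.05 per the authors' deposited table: 2 SYD rows and 1 SDG8 row. Both HB-1 rows, the remaining SDG8 row and the remaining SYD row were listed lower with adjusted p-values of 0.0582 to 0.0955 per the authors' deposited table. Over all 41335 genes tested, 0.387% were called lower at 0.05 and 0.578% at 0.1. That background is given for scale only, because the rows were found in the list of called genes. Their log2 fold changes ran from -1.81 to -0.87, with a median of -1.11 in the authors' deposited table, beside a median of -1.21 over its 239 lower rows and of 1.56 over its 79 higher rows. The steepest of the 7 was 35th and the shallowest 237th of the 239 in order of fall.

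**Figure D1:**
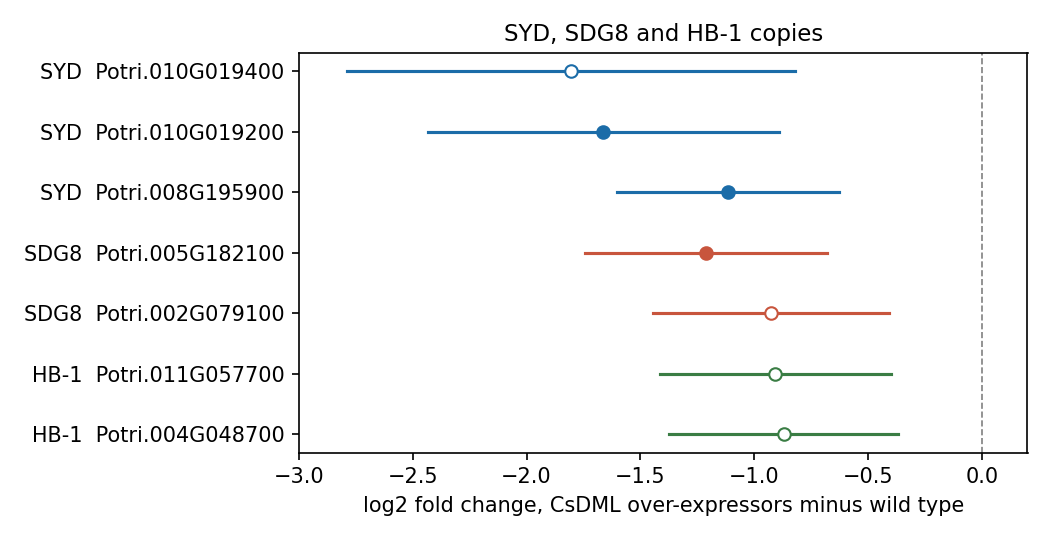
Log2 fold change (over-expressors minus wild type) of the 7 poplar rows named SYD, SDG8 or HB-1, with bars of 1.96 implied SE on either side; filled points have an adjusted p under 0.05 and open points do not. All 7 points lie left of 0, the 2 SYD rows of chromosome 10 lie furthest left at -1.81 and -1.66, and their bars are the widest.

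SYD, the SWI/SNF ATPase, fell in 2 of its 3 rows. The chromosome 8 row, Potri.008G195900, fell by 1.11 on the log2 scale (2.16-fold lower, implied SE 0.249, adjusted p 0.00426) per the authors' deposited table. Its worked-out level was 225 CPM in wild type and 104 CPM in the over-expressors. Potri.010G019200, on chromosome 10, fell by 1.66 (3.17-fold lower, implied SE 0.394, adjusted p 0.0103) per the authors' deposited table, from a worked-out 10.3 CPM to 3.25 CPM. Potri.010G019400, also on chromosome 10, was listed at -1.81 (3.50-fold lower, implied SE 0.502, adjusted p 0.0582) per the authors' deposited table, from a worked-out 5.57 CPM to 1.59 CPM. The order of the folds was thus the reverse of the order of the p-values: the SYD row with the steepest fold had the lowest mean log2 CPM, 1.55, and missed 0.05. The mean log2 CPM was 2.48 for the SYD row next to it and 7.18 for the SYD row of chromosome 8.

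The 2 chromosome 10 rows of SYD carry IDs only 2 steps apart, and both have the best hit AT2G28290.1, while the chromosome 8 row has AT2G28290.3, another transcript model of the same Arabidopsis gene. Whether the neighbouring rows are separate genes or pieces of 1 gene model was not tested, since no annotation was used here. Their log2 fold changes differed by 0.14, with an implied 95% interval of -1.11 to 1.39. Against the chromosome 8 row, Potri.010G019400 was 0.69 lower on the log2 scale (implied 95% interval -0.41 to 1.79) and Potri.010G019200 0.55 lower (-0.36 to 1.46). These intervals include 0, so the SYD rows could not be told apart in fold, and they also leave room for a difference of more than 1 on the log2 scale. They treat rows as independent, which reads shared between near-identical copies would break; how such reads were counted is not given in the sources used. Like those given below for SDG8 and HB-1, these intervals make no allowance for the rows having been listed by the same p-values.

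**Figure D2:**
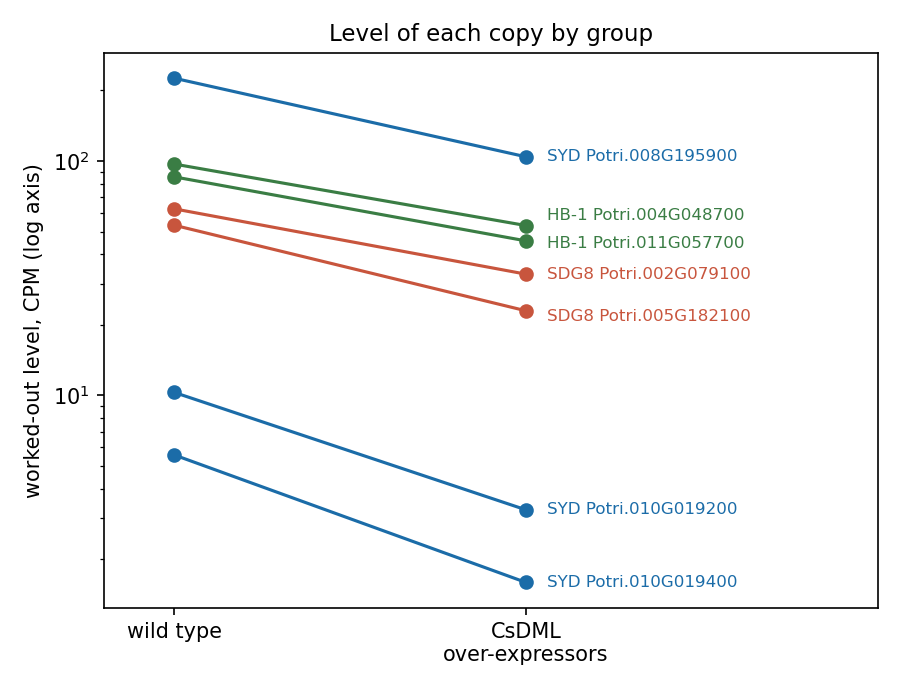
Worked-out level in CPM (log axis) of each of the 7 rows in wild type (1 library) and in the CsDML over-expressors (2 lines joined), 1 line per row. Every line slopes down, from 225 to 104 CPM for Potri.008G195900 and from 5.57 to 1.59 CPM for Potri.010G019400; heights are not divided by gene length and are to be compared only along a line.

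SDG8, the histone H3 methyltransferase, fell in 1 of its 2 rows. Potri.005G182100, on chromosome 5, fell by 1.21 on the log2 scale (2.32-fold lower, implied SE 0.271, adjusted p 0.00432) per the authors' deposited table. Its worked-out level was 53.2 CPM in wild type and 23.0 CPM in the over-expressors. Potri.002G079100, on chromosome 2, was listed at -0.93 (1.90-fold lower, implied SE 0.265, adjusted p 0.0745) per the authors' deposited table, from 62.5 CPM to 32.9 CPM. Although 1 SDG8 copy passed 0.05 and the other did not, they differed by only 0.29 on the log2 scale, with an implied 95% interval of -0.46 to 1.03. A difference between the SDG8 copies is therefore not shown. The table describes both as histone methyltransferases, and the alias CCR1 that it gives them is shared with an unrelated lignin enzyme.

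HB-1, the homeobox partner of ISWI remodellers, did not pass 0.05 in either row. Potri.011G057700, on chromosome 11, was listed at -0.91 (1.87-fold lower, implied SE 0.259, adjusted p 0.0743) per the authors' deposited table. Its worked-out level was 85.5 CPM in wild type and 45.6 CPM in the over-expressors. Potri.004G048700, on chromosome 4, was listed at -0.87 (1.83-fold lower, implied SE 0.257, adjusted p 0.0955) per the authors' deposited table, from 97.0 CPM to 53.0 CPM. These HB-1 copies were the most alike of the 3 sets, 0.04 apart on the log2 scale (implied 95% interval -0.68 to 0.75). They had the smallest falls of the 7. Only 12 of its 318 rows had a larger adjusted p than Potri.004G048700, and the largest was 0.0994. Only 2 of its 239 lower rows had a smaller fall, and the smallest absolute change listed was 0.857 on the log2 scale.

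The smallest change that reached the table depended on the level, so each member was set beside the other lower rows within 0.5 of it in mean log2 CPM. Around Potri.010G019400 the 20 such rows of the authors' deposited table ran from -1.55 to -3.71, with a median of -1.86, and 9 of the 20 had a smaller fall. Around Potri.010G019200 the median of 32 rows was -1.66, the value of that SYD row itself to 2 decimals. The steeper folds of the chromosome 10 SYD rows were thus ordinary for listed genes at that mean log2 CPM, where smaller changes are not listed. At the other end, Potri.008G195900 stood beside 15 rows with a range of -0.86 to -1.34, and 11 of the 15 had a smaller fall. Potri.005G182100, the SDG8 copy that fell, exceeded 36 of 42 rows around it, whose median was -1.05. Its partner Potri.002G079100 exceeded 5 of 42, and the HB-1 rows exceeded 6 of 41 and 1 of 43 in the authors' deposited table.

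**Figure D3:**
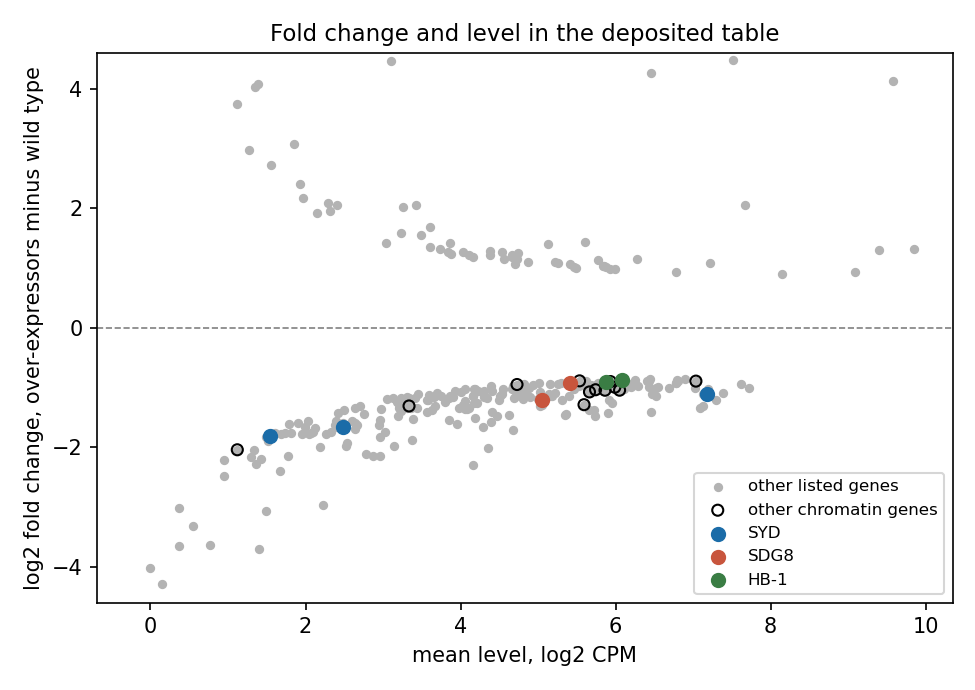
Log2 fold change against mean level (log2 CPM) for the rows of the authors' deposited table, with SYD, SDG8 and HB-1 coloured and the other chromatin genes ringed; 21 rows beyond 4.6 on the log2 scale in either direction are outside the plot. The lower edge of the empty band around 0 follows the level, and the HB-1 rows (-0.91 and -0.87) sit on it, while the SDG8 row at -1.21 sits below it.

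Genes with the most similar values were found by the distance in log2 fold change and mean log2 CPM, which is likeness in 1 comparison and nothing more. Nearest to the chromosome 8 SYD row was KTF1 (SPT5L), a factor of RNA-directed DNA methylation in Arabidopsis, which fell by 1.12 per the authors' deposited table (Potri.008G032800, adjusted p 0.00404, distance 0.0430). Nearest to SDG8 Potri.005G182100 was CDKB2;1, a mitotic cyclin-dependent kinase, which fell by 1.19 per the authors' deposited table (Potri.005G257500, adjusted p 0.00716, distance 0.0526). Nearest to HB-1 Potri.011G057700 was CCT (also CRP), a subunit of the Mediator complex that links regulators to RNA polymerase, listed at -0.91 per the authors' deposited table (Potri.002G159900, adjusted p 0.0668, distance 0.0241). Nearest to SYD Potri.010G019200 was a gene whose best hit, AT5G59690, encodes histone H4; it fell by 1.60 per the authors' deposited table (Potri.005G115600, adjusted p 0.0169, distance 0.0679). The nearest rows of the other 3 members were an F-box gene, a myosin heavy chain-related gene and EMB3012, an embryo-lethal locus in Arabidopsis, at distances of 0.0606, 0.0584 and 0.0587.

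Poplar keeps many genes as pairs on different chromosomes from an ancient doubling of its genome, and each of the 3 genes had rows on 2 chromosomes. Of the best hits in the authors' deposited table, 32 had at least 2 rows, 66 rows in all, and 29 of the 32 had rows on more than 1 chromosome; 1 more had a row on unplaced sequence. The chromosome pair of SDG8, 2 and 5, held 5 other such best hits, the pair of SYD, 8 and 10, held 1, and the pair of HB-1, 4 and 11, held 0. All rows were lower for 31 of the 32 best hits, those of SYD, SDG8 and HB-1 included, so the shared direction of their copies was the usual case in this table. The exception was histone H4 (AT5G59690), with rows at -1.71, -1.60 and 1.29 per the authors' deposited table. It was also the only one of the 32 whose outer rows differed by more than 1.96 implied SE.

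Among listed rows, the spread between copies was wide for SYD and narrow for HB-1 by the standard of the other best hits. Over the 28 other best hits with all rows lower, the copies differed by a median of 0.11 on the log2 scale, within a range of 0.000602 to 0.763, in the authors' deposited table. SYD, at 0.69, exceeded 28 of the 31 best hits with all rows lower, its own included in that total; SDG8, at 0.29, exceeded 22, and HB-1, at 0.04, exceeded 4. SYD has 3 rows where the others of the 31 have 2, which by itself widens a range. Listing adds to it: around Potri.010G019400 the smallest listed fall was -1.55, steeper than the -1.11 of the chromosome 8 row. The rows listed near that level thus all lay apart from the chromosome 8 row. Both HB-1 rows, at -0.91 and -0.87, lay close to the smallest absolute change listed, 0.857. The spreads describe listed rows and are not read as a trait of SYD or HB-1. Only CIP1, a partner of the light-signalling regulator COP1 (-2.17 and -1.41, difference 0.763), and AT3G44050, described only as a P-loop nucleoside triphosphate hydrolase (-2.14 and -1.40, difference 0.741), were spread more widely among the 31 per the authors' deposited table. The closest copies were those of ATXR3 (difference 0.000602), of DEK1, a calpain-type protease (-0.99 and -0.97), and of CDKB2;1 (-1.21 and -1.19) in the authors' deposited table. In 25 of the 31, the row with the steeper fold was the row with the lower mean level, as it was for SYD, SDG8 and HB-1. That order partly restates the listing, since at a low mean level only steep falls were listed. The smallest listed fall was -1.55 around Potri.010G019400 and -0.86 around Potri.008G195900.

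**Figure D4:**
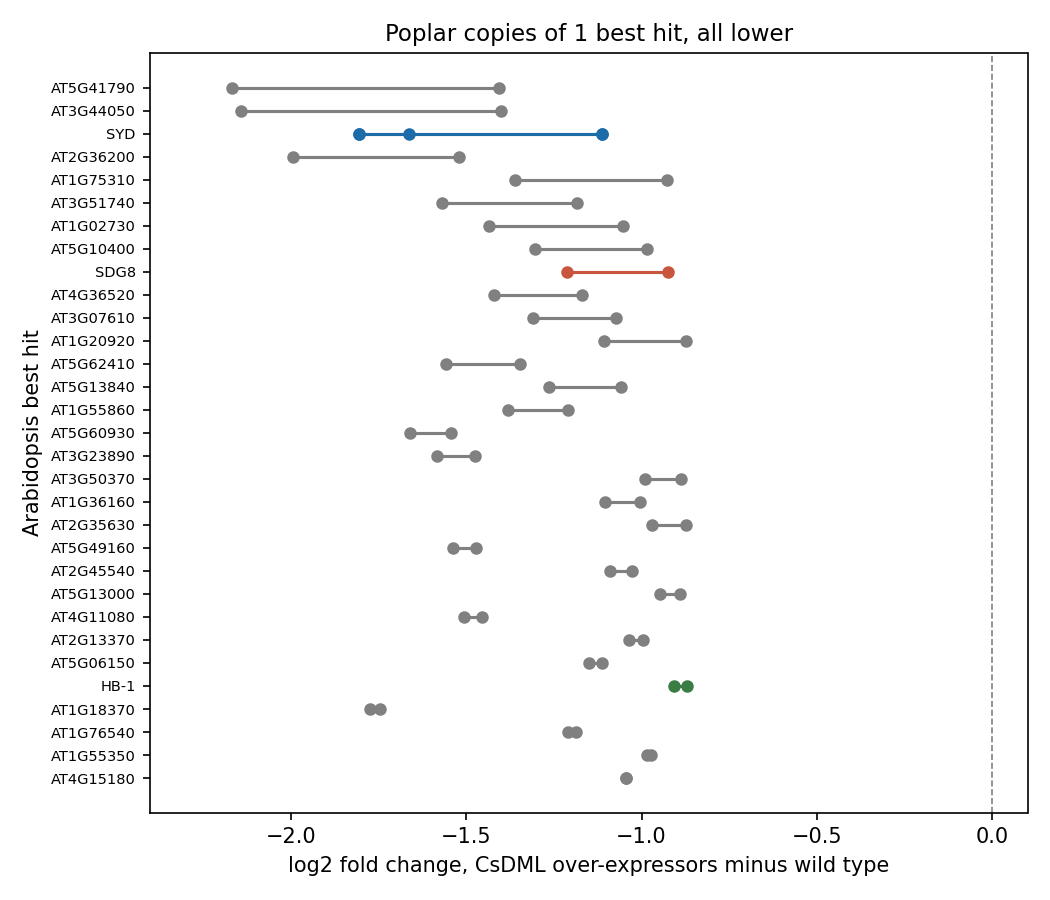
Log2 fold change of the poplar rows that share 1 Arabidopsis best hit, for the 31 best hits whose rows were all lower, ordered by the spread between rows. SYD (0.69) has 2 best hits above it, SDG8 (0.29) is in the upper part and HB-1 (0.04) is near the bottom.

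The other rows that a list of chromatin genes took in were lower too. That list, of 132 Arabidopsis loci, was chosen with earlier results of these data known, so its counts are a description. Its loci were those of remodelling ATPases and their partners, histone methyltransferases and demethylases, Polycomb proteins, acetyltransferases, deacetylases and histone chaperones. Of these, 12 loci had a row in the authors' deposited table, 19 rows in all, and all 19 were lower, beside 75.2% of all its rows. At an adjusted p under 0.05, 10 of the 19 fell (52.6%), beside 66.9% of the 239 lower rows. Without SYD, SDG8 and HB-1, 12 rows of 9 loci remained, of which 7 fell, with a median of -1.04 on the log2 scale per the authors' deposited table. How many poplar genes of these loci were tested and not listed is unknown here, so neither count is a rate for the list.

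By role, the remodelling ATPases of the list were represented by the SWI/SNF and CHD families. CHR24, a remodeller outside the list, is given below. BRM, the SWI/SNF ATPase most closely related to SYD, had 1 row, listed at -0.89 per the authors' deposited table (Potri.002G160900, adjusted p 0.0623). CHR5, a CHD-type remodeller, fell in both rows, to log2 fold changes of -1.04 and -0.995 per the authors' deposited table (Potri.009G047800, adjusted p 0.0207; Potri.001G253400, adjusted p 0.0278). CHR4 (PKR1), also of the CHD type, was listed at -0.95 per the authors' deposited table (Potri.001G123400, adjusted p 0.0925). A row was found for only 2 of the 4 SWI/SNF ATPase loci, 2 of the 4 CHD loci and 2 of the 5 loci of ISWI partners. No row was found for the 13 loci of other SWI/SNF subunits or the 2 ISWI ATPases that HB-1 is known to partner. Nor was any found for the 5 loci of INO80 or SWR1 and the 14 of other SNF2 remodellers. Being unlisted does not show that a locus was unchanged. A relative of HB-1, AT5G44180, known from general knowledge as RLT2, was listed at -0.90 per the authors' deposited table (Potri.017G016200, adjusted p 0.0780), close to the HB-1 values of -0.91 and -0.87.

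Among the histone-modifying enzymes, ATXR3 (SDG2), a SET-domain enzyme that methylates histone H3 at active genes, fell in both rows, to log2 fold changes of -1.05 and -1.04 per the authors' deposited table (Potri.017G041100, adjusted p 0.0176; Potri.007G119300, adjusted p 0.0162). ATXR6, which methylates histone H3 in silent chromatin of Arabidopsis, was listed at -2.04 with a mean log2 CPM of 1.12 (Potri.012G018300, adjusted p 0.0957), the steepest of the 19 rows of the authors' deposited table. IBM1, a histone demethylase that keeps silencing marks out of gene bodies, fell by 1.31 and 1.07 per the authors' deposited table (Potri.005G082900, adjusted p 0.0241; Potri.005G091200, adjusted p 0.0147). A further jumonji-type gene, with the best hit AT4G00990 and shown as JMJ27 in the plot of the chromatin list, fell by 1.29 per the authors' deposited table (Potri.015G012800, adjusted p 0.000753). HAC1, a histone acetyltransferase of the CBP family, was listed at -0.89 per the authors' deposited table (Potri.007G003400, adjusted p 0.0987). The 11 Polycomb, 14 deacetylase and 4 chaperone loci had no row. In the other classes of histone-modifying enzymes most loci had none either. A row was found for 2 of 12 H3K36 or H3K4 methyltransferase loci and 1 of 17 H3K9 or H3K27 methyltransferase loci. Among demethylases it was 2 of 15 loci, and among acetyltransferases 1 of 12. Outside the list, and named after its value was seen, SHL1, whose PHD and BAH domains read histone marks, was listed higher at 1.03 per the authors' deposited table (Potri.009G121000, adjusted p 0.0600), so the single direction holds for the rows the list took in. CHR24, a remodeller the list also missed and likewise named afterwards, fell by 1.66 per the authors' deposited table (Potri.007G102800, adjusted p 0.0128). A jumonji-domain row outside the list, with the best hit AT1G63490 and also named afterwards, fell by 0.96 per the authors' deposited table (Potri.003G126600, adjusted p 0.0469), so the list's counts do not cover every chromatin gene of the table.

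**Figure D5:**
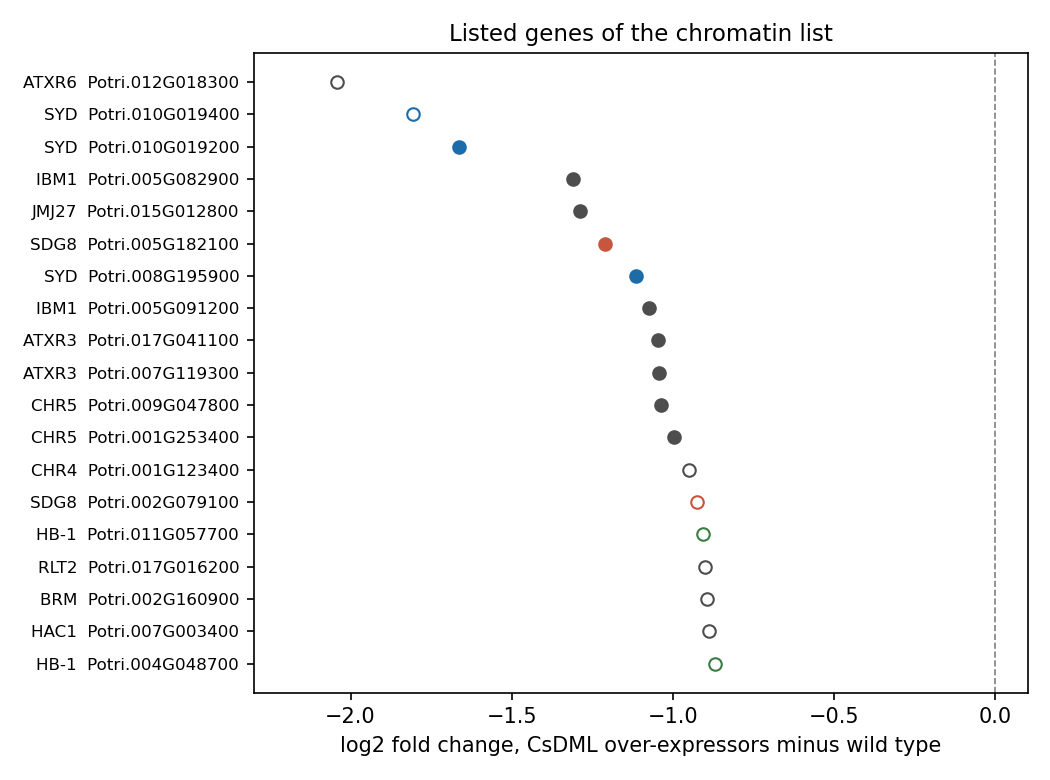
Log2 fold change (over-expressors minus wild type) of the 19 rows of the authors' deposited table that belong to the chromatin list, with SYD, SDG8 and HB-1 coloured; filled points have an adjusted p under 0.05. All 19 lie left of 0, between -2.04 for ATXR6 and -0.87 for HB-1, and 10 are filled.

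Listed genes close to the members on their chromosomes were looked for by ID. Over all genes, 318 of the 41335 tested were listed. How many of the IDs around the members were tested is unknown here, so the neighbours are given as a description. Within 20 IDs on either side, apart from the SYD rows themselves, 2 members had a listed neighbour, and these are named after their values were seen. Next to SYD Potri.008G195900, RUK (EMB3013), a kinase known from cell division in Arabidopsis, fell by 1.30 per the authors' deposited table (Potri.008G195800, adjusted p 0.0322). At 9 IDs from SDG8 Potri.002G079100, a SecA-type translocase gene was listed at -4.02 per the authors' deposited table (Potri.002G078200, adjusted p 0.0685). The description given to SYD, P-loop containing nucleoside triphosphate hydrolase, was shared by 11 other rows. These 11 were all lower, as were the 3 SYD rows, beside 75.2% of all listed rows. The description is broad, and none of the 11 carries the name of a remodeller. One of them is MYA3 (Potri.002G041800), named after its value was seen.

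The tissue label could not be checked, since the table holds only genes that differed. None of the 6 shoot meristem markers and none of the 4 phloem markers had a row. Of the 4 leaf markers LHCA3 rose by 1.43 (Potri.014G198400, adjusted p 0.00135), and of the 4 xylem markers XCP1 had a lower level, -1.75 on the log2 scale with an adjusted p of 0.0489 (Potri.004G207600), per the authors' deposited table. Their part in the lower SYD, SDG8 and HB-1 values was not tested. The table has no row for the CsDML transgene.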

How the data were processed

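RNA from shoot apices of hybrid poplar was sequenced in 3 libraries, made with a directional kit per the labels' protocols. The authors used FastQC, TopHat and edgeR, per the submitters' processing notes, which give no versions. The sources used name no genome build, annotation, read counter or kind of test. Per the file headers, the deposited values are a log2 fold change of over-expressors against wild type, a mean log2 CPM, a p-value and its FDR per gene. The base of 2 was read from the deposited column names, which are those the authors' edgeR writes. Depth is unknown, and with 1 wild-type library the p-values cannot rest on a spread between wild-type libraries.

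The number of tests was recovered from p, rank and adjusted p as 41335, and 318 of 318 adjusted p-values were matched within a relative tolerance of 1e-06. Rows were matched by exact name between commas, or by Arabidopsis locus for the lists. Group levels assume that the deposited mean weights the 3 libraries equally. Implied SEs treat the deposited p as a two-sided normal test. Recovery of the number of tests and of these SEs was run on simulated data whose p-values had that same normal form. The simulation therefore checks the arithmetic only, and not whether the normal form holds for the deposited p-values. Named genes were the members, all listed rows of the chromatin list, the nearest row to each member, and the 3 other best hits with the widest and the 3 with the closest copies; marker genes with a row are given as well, and genes named after their values were seen are marked so. Members, lists and tests were chosen with earlier results of these data known. Alternatives were other thresholds, a minimum fold or level, and other ways to match rows. Python 3.11.15, pandas 2.3.3, numpy 2.4.6 and scipy 1.17.1 were used.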

Additional observations from a re-analysis of the deposited data

How the results depend on the processing

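At an adjusted p under 0.1 instead of 0.05 the count of called SYD, SDG8 and HB-1 rows went from 3 to 7, which is every row, because the table ends there, and that of the chromatin list from 10 to 19. At 0.01 the chromatin list had 3 called rows, and the members 2, Potri.008G195900 and Potri.005G182100. With a minimum absolute log2 fold change of 1 the counts were 3 and 9, and with a mean log2 CPM of at least 1, or with rows matched by best-hit locus or also by symbol, they were 3 and 10. The minimum level and the other ways of matching left the same rows in place, so those counts could not change. The lowest mean log2 CPM among these rows was 1.12. Counting the 2 neighbouring SYD rows of chromosome 10 as 1, an alternative chosen after seeing the data, moved the members' median log2 fold change from -1.11 to -1.02 and the spread between the SYD copies from 0.69 to 0.62. No paired analysis was possible because the deposited table holds no value per library, and for the same reason no library could be left out. The depth is unknown; around the members, the smallest listed fall was larger at a low mean log2 CPM (-1.55 around Potri.010G019400) than at a high one (-0.86 around Potri.008G195900).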
